A study of Mus musculus with 24 samples.

Results

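Nr2f1, Nr2f2, Etv1, Dlk1, Coch and Gpc3 were taken by name from a table of 46983 genes, as a list of genes enriched towards the ventral end of the hippocampus. Dorsal and ventral parts were not sequenced apart, so the ventral enrichment of these 6 genes was not measured here. All 6 were measured in every one of 24 mice and passed the filter on low counts, as did 16209 genes in all. The table holds bulk mRNA sequencing of the hippocampus of female mice on a C57BL/6 background, taken as punches that covered its dorsal and ventral parts. The mice formed 4 groups of 6. Fkbp5lox/lox mice carried Fkbp5 alleles flanked by loxP sites, had no Cre recombinase and served as wild types, while their Fkbp5Nex littermates carried the same floxed alleles together with Nex-Cre. This Cre line acts in glutamatergic neurons of the forebrain from embryonic life onwards and spares the dentate gyrus, so that the dentate granule cells of the Fkbp5Nex mice kept the gene. The labels name single mice but not their litters. Within each genotype, 6 mice had been reared under control conditions and 6 had gone through early life stress (ELS), with scarce bedding and nest material in the first days after birth. All were tested for behaviour at 6 months of age before the tissue was collected.

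The hippocampus changes along its long axis. Its dorsal end is known for its part in spatial learning and its ventral end for its links with the amygdala, the hypothalamus and the prefrontal cortex and for its part in anxiety, and many genes of the pyramidal neurons form gradients or sharp borders along this axis. Nr2f1 and Nr2f2 encode COUP-TFI and COUP-TFII, orphan nuclear receptors that pattern the cortex and hippocampus in development, and Etv1 encodes an ETS domain transcription factor. Dlk1 encodes a transmembrane protein related to the Notch ligands, Gpc3 a glypican, which is a heparan sulphate proteoglycan held to the cell surface by a lipid anchor, and Coch the secreted matrix protein cochlin. Since whole punches were sequenced, fewer cells that express a gene and less RNA per cell cannot be told apart in any value below.

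Most of the 6 genes varied together from mouse to mouse, so the region just upstream of their start sites was laid out. RefSeq (GRCm38.p6) gave 8 windows of 300 bases for the 6 genes, each from 250 bases before to 50 bases after a start site. The windows of Nr2f2 (chr7:70366697-70366996, minus strand), Etv1 (the first of its pair, chr12:38779832-38780131, plus strand) and Dlk1 (chr12:109452573-109452872, plus strand) are shown because these genes followed each other most closely. The window of Coch (chr12:51593091-51593390, plus strand) is shown because Coch followed none of the others past the threshold. Capitals mark the TATA box TATAAA and the GC box GGGCGG on either strand.
Nr2f2: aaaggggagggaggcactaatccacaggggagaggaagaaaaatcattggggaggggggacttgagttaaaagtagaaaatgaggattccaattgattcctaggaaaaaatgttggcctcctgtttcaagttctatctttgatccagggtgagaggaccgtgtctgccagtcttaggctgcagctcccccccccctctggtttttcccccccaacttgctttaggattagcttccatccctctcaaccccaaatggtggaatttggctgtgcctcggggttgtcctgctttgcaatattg
Etv1: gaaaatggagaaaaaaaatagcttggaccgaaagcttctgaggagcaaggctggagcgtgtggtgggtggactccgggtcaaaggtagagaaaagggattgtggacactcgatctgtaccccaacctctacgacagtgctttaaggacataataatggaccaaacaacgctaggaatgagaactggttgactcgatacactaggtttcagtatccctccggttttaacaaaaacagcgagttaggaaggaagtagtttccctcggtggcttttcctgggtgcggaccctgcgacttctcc
Dlk1: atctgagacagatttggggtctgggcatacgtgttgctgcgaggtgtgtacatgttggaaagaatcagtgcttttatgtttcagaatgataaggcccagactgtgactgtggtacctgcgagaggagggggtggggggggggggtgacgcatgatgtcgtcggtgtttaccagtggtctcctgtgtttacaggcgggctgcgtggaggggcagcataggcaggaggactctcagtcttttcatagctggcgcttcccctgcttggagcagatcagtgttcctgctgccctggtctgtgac
Coch: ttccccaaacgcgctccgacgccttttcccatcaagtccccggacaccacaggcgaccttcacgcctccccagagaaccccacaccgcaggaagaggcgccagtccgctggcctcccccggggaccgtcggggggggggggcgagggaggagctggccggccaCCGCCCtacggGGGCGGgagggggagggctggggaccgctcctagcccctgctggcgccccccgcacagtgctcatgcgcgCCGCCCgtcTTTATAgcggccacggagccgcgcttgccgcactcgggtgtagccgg

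The Coch window held 1 TATA box and 3 GC boxes and had a GC content of 73.7%, while the Nr2f2, Etv1 and Dlk1 windows above held neither motif and had a GC content of 49.7%, 48.7% and 55.7%. The second Etv1 window (chr12:38783461-38783760, plus strand) held 1 TATA box, and 1 of the 2 Nr2f1 windows held 1 GC box. Over all 32851 windows of the table, 13.6% held a TATA box, 35.7% held a GC box, and the median GC content was 52.7%. The Gpc3 window held 4 GC boxes and was also rich in G and C (70.7%), although Gpc3 followed the other genes. The nuclear receptor half-site AGGTCA, its direct repeat (the half-site on each side of 1 free base) and the ETS site CCGGAAGT were searched on both strands as well. None of the 8 windows held any of these letters, against 16.3%, 0.0396% and 3.89% of all windows. These matches are a description of the windows and say nothing on binding.

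The genes lie apart from each other in the genome. In GENCODE vM21 (GRCm38), matched by Ensembl identifier, Nr2f1 (ENSMUSG00000069171) lies on chromosome 13 from 78188973 to 78199757 and Nr2f2 (ENSMUSG00000030551) on chromosome 7 from 70351944 to 70366735. Etv1 (ENSMUSG00000004151), Coch (ENSMUSG00000020953) and Dlk1 (ENSMUSG00000040856) share chromosome 12, at 38779380 to 38870484, 51593341 to 51605771 and 109452823 to 109463336. Gpc3 (ENSMUSG00000055653) lies on chromosome X from 52272426 to 52613950. All are protein coding. Etv1, Coch and Dlk1 overlap no other annotated gene. Nr2f1 shares exon sequence with A830082K12Rik on the opposite strand, which itself had 353 to 542 counts per mouse, and Nr2f2 with B130024G19Rik, which had 10 to 37. Whether the counting used strand is not given in the sources used here, so how reads from these shared exon stretches were assigned is not known.

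The libraries held 18347283 to 26555623 counts each, and between 22868 and 23987 genes had at least 1 count. Fkbp5, the deleted gene, checked the genotype labels, with 47.7 to 63.4 CPM (read counts relative to library size, scaled by the TMM method) in the Fkbp5lox/lox mice and 8.71 to 26.5 CPM in the Fkbp5Nex mice, which did not overlap. Its log2 fold change between genotypes was -2.03 (standard error 0.09, adjusted p = 2.81e-12 in edgeR's quasi-likelihood test). Markers of hippocampal excitatory neurons had a summed level of 1980 to 2783 CPM over their 9 genes. Slc17a7 had the largest part in this sum (mean 1325 CPM, from 948 to 1672). Single markers of the list could vary much more, such as C1ql2 (14.9 to 196 CPM) and Dsp (5.16 to 83.6 CPM), while Zbtb20 ran from 197 to 452 CPM. The sums for neighbouring tissue varied more between mice than the sum of the 9 genes. They ran from 42.7 to 304 CPM over 8 thalamic genes and from 19.3 to 4617 CPM over the choroid plexus list of 8 genes, 5 of which were tested.

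Per kilobase of annotated exon, Nr2f1 had the highest level of the 6 genes and Coch and Dlk1 the lowest. The place of Etv1 depends on this length, since the exons of all its transcripts cover 13296 bases, against 5093 for Nr2f1. In CPM, Etv1 had the higher mean (97.1, against 69.1 for Nr2f1). Mean levels over the 24 mice were 13.6 ± 1.09 CPM per kilobase (RPKM; SD, n = 24) for Nr2f1, 7.31 ± 2.23 for Etv1 and 5.78 ± 1.30 for Nr2f2. Gpc3 followed with 2.66 ± 1.26 RPKM, Dlk1 with 1.93 ± 1.35 and Coch with 1.91 ± 1.05. Nr2f1 stood above Etv1 in 24 of 24 mice and Nr2f2 above Gpc3 in 24 of 24. Neighbours in this order overlapped elsewhere, since Etv1 stood above Nr2f2 in 21 mice and Gpc3 above Dlk1 in 18, and Dlk1 above Coch in only 11 of 24.

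The genes also differed in how much they varied between mice of the same group. On the log2 CPM scale, the standard deviation within groups was 1.30 for Dlk1, 0.90 for Coch, 0.65 for Gpc3, 0.45 for Etv1, 0.34 for Nr2f2 and 0.12 for Nr2f1. The median of all genes tested was 0.18. Dlk1 was thus at percentile 99.7 of all genes tested, Coch at 99.1 and Gpc3 at 96.7, whereas Nr2f1 lay at 22.1. Counting error alone would give between 0.03 (Etv1) and 0.13 (Coch), and 0.04 for Nr2f1, so the spread of every one of the 6 exceeded it.

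**Figure D1:**
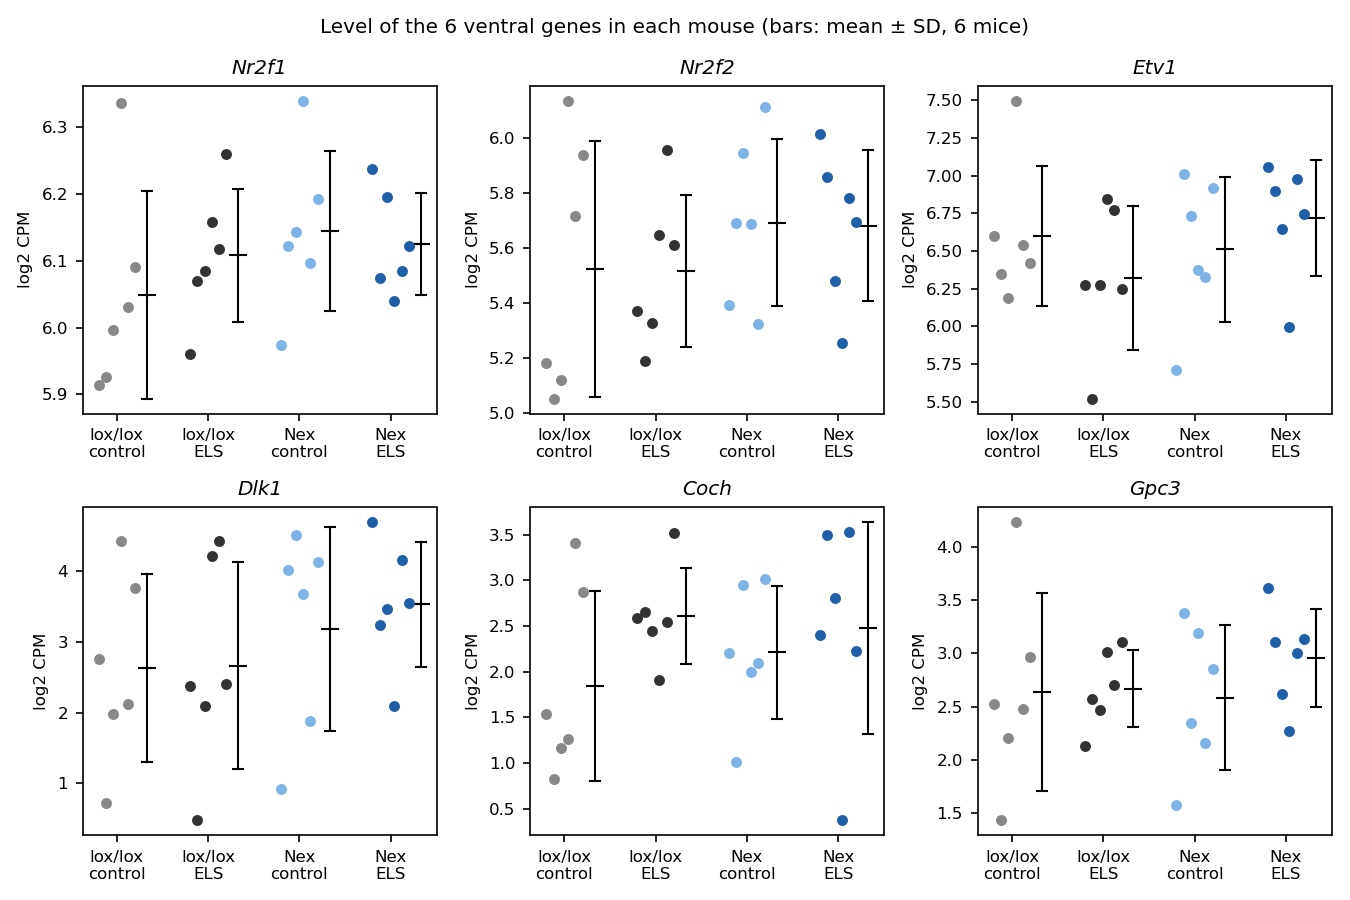
Level of each of the 6 genes in log2 CPM (vertical axis, scaled separately in each panel) in the 4 groups, with 1 point per mouse and bars for the mean ± SD of 6 mice. The points of the groups overlap in every panel, and Dlk1 spans the widest range, from 1.37 to 25.8 CPM.

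Of the transcription factors, Nr2f1 was the steadiest. Its level ran from 60.3 to 80.8 CPM in Fkbp5lox/lox controls (median 64.6) and from 62.3 to 76.6 CPM after ELS (median 68.6). Among Fkbp5Nex mice it ran from 62.8 to 81.0 CPM in controls (median 70.2) and from 65.8 to 75.4 CPM after ELS (median 68.7). All 4 ranges overlapped, and the highest mouse of the 24 had only 1.34 times the level of the lowest. With 5 surrogate variables in the model, which stand for variation between mice that the groups do not account for, the log2 fold change for ELS was -0.02 in Fkbp5lox/lox mice (95% interval -0.11 to 0.08) and -0.05 in Fkbp5Nex mice (-0.14 to 0.04). For genotype it was 0.04 in controls (-0.05 to 0.12) and 0.00 after ELS (-0.08 to 0.09).

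Nr2f2 spread over a 2.12-fold range. In Fkbp5lox/lox mice it had 33.1 to 70.4 CPM under control rearing (median 44.5) and 36.4 to 62.1 CPM after ELS (median 45.1). In Fkbp5Nex mice it had 40.05 to 69.2 CPM under control rearing (median 51.6) and 38.1 to 64.8 CPM after ELS (median 53.5). The lowest and the highest mouse of all 24 were both Fkbp5lox/lox controls, numbers 30 and 44. Both ELS differences were close to 0, at -0.01 in Fkbp5lox/lox mice (95% interval -0.22 to 0.20) and -0.03 in Fkbp5Nex mice (-0.24 to 0.18), and the genotype difference was 0.04 in controls (-0.15 to 0.24) and 0.03 after ELS (-0.18 to 0.23).

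Etv1 spanned a 3.94-fold range. It ran from 72.9 to 180 CPM in Fkbp5lox/lox controls (median 89.4), where mouse 44 stood alone at the top and the other 5 reached at most 97.1 CPM. After ELS the Fkbp5lox/lox mice had 45.8 to 115 CPM (median 77.3). The Fkbp5Nex mice had 52.4 to 129 CPM as controls (median 94.4) and 63.8 to 133 CPM after ELS (median 113). Again the groups overlapped in each comparison. The log2 difference for ELS averaged over genotypes was -0.12 (standard error 0.06, unadjusted p = 0.0589 and adjusted p = 0.998 in edgeR's quasi-likelihood test), and it turned to 0.07 with a score of thalamic markers in place of the surrogate variables. Without surrogate variables the difference between Fkbp5Nex and Fkbp5lox/lox mice after ELS was 0.38 (95% interval -0.11 to 0.86), against -0.01 (-0.18 to 0.15) with them.

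Dlk1 was the most variable of the genes that encode proteins of the cell surface or matrix. Fkbp5lox/lox controls ranged from 1.63 to 21.6 CPM (39 to 472 counts, median 5.54 CPM) and Fkbp5lox/lox ELS mice from 1.37 to 21.4 CPM (37 to 514 counts, median 5.21 CPM). Fkbp5Nex controls ranged from 1.86 to 22.8 CPM (median 14.4) and Fkbp5Nex ELS mice from 4.23 to 25.8 CPM (median 11.4). Each group thus held mice with little Dlk1 and mice with much of it. The exact two-sided permutation test of the mean log2 CPM, without surrogate variables, gave a difference of 0.87 between the genotypes after ELS (exact p = 0.251, n = 6 per group). With the surrogate variables this difference was -0.27 (95% interval -0.79 to 0.26), so its sign depended on the model. The ELS difference in Fkbp5lox/lox mice was 0.42 (-0.14 to 0.98) and in Fkbp5Nex mice -0.08 (-0.61 to 0.45). The test of the difference between these effects gave 0.51 (standard error 0.36, adjusted p = 0.999 in edgeR's quasi-likelihood test). These values depended on the model and on single mice. Without surrogate variables the ELS difference in Fkbp5lox/lox mice was 0.11 and the difference between the effects -0.00064, and without Fkbp5lox/lox ELS mouse 72 they were 0.13 and 0.24.

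Gpc3 ranged from 2.68 CPM in mouse 30 to 18.8 CPM in mouse 44, both Fkbp5lox/lox controls (group median 5.63). After ELS the Fkbp5lox/lox mice lay closer together, at 4.36 to 8.62 CPM (median 6.21). Fkbp5Nex controls had 2.95 to 10.4 CPM (median 6.14) and Fkbp5Nex ELS mice 4.79 to 12.2 CPM (median 8.28). The control ranges enclosed those after ELS in Fkbp5lox/lox mice, and the ranges overlapped in every other comparison. Its differences lay between -0.22 (ELS in Fkbp5lox/lox mice, 95% interval -0.69 to 0.26) and 0.07 (genotype after ELS, -0.39 to 0.53).

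Coch was the only gene with a difference at an unadjusted p under 0.05. It had 1.76 to 10.6 CPM in Fkbp5lox/lox controls (42 to 239 counts, median 2.63 CPM), where 4 of the 6 mice lay at or under 2.89 CPM, and 3.73 to 11.45 CPM after ELS (median 5.90). Among Fkbp5Nex mice it had 1.99 to 8.06 CPM in controls (median 4.42) and 1.27 to 11.53 CPM after ELS (25 to 237 counts, median 6.13 CPM). The median was higher after ELS in both genotypes, and the ranges overlapped in both. Averaged over genotypes, the log2 difference for ELS was 0.62 (standard error 0.27, 95% interval 0.05 to 1.19, unadjusted p = 0.0352 and adjusted p = 0.998 in edgeR's quasi-likelihood test). It was 0.46 in Fkbp5lox/lox mice (-0.33 to 1.25) and 0.77 in Fkbp5Nex mice (-0.01 to 1.55). Among all genes tested, 3.53% had an unadjusted p under 0.05 in this comparison, and without surrogate variables the difference was 0.47 (-0.18 to 1.12). The 5 choroid plexus genes tested were all higher after ELS in the same fit, with a median log2 difference of 0.56, and so were all 8 thalamic genes (median 0.19), none of them past the threshold. By genotype, the choroid plexus median was 0.08 in Fkbp5lox/lox mice, with 1 gene lower, and 1.05 in Fkbp5Nex mice. The thalamic median was 0.31 in Fkbp5lox/lox mice and 0.04 in Fkbp5Nex mice, with 3 genes lower in the latter. The summed choroid plexus level ran from 21.2 to 4617 CPM in Fkbp5lox/lox controls (median 900) and from 27.2 to 1502 CPM after ELS (median 541). In Fkbp5Nex mice this sum ran from 19.3 to 3435 CPM in controls (median 56.6) and from 23.5 to 1517 CPM after ELS (median 148). The summed thalamic level ran from 42.7 to 90.7 CPM and from 50.6 to 304 CPM in the Fkbp5lox/lox groups, and from 45.5 to 188 CPM and from 52.0 to 253 CPM in the Fkbp5Nex groups. No gene of either list was at 0 in all mice. With the score of the thalamic markers in the model in place of the surrogate variables, the Coch difference for ELS was 0.22 over both genotypes (unadjusted p = 0.513 in edgeR), 0.036 in Fkbp5lox/lox mice and 0.40 in Fkbp5Nex mice. In DESeq2 the difference over both genotypes was 0.62 with an unadjusted p of 0.0530. In edgeR its unadjusted p also lay above 0.05 when mouse 4, 32, 34, 38, 42, 44, 54 or 62 was omitted, with the lowest difference, 0.44, without mouse 38. The part of the choroid plexus genes was not tested.

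At a false discovery rate (FDR) of 0.02 over all genes tested, edgeR's quasi-likelihood test called none of the 6 genes for ELS in Fkbp5lox/lox mice, where 0% of all genes were called, or in Fkbp5Nex mice (0%). It called none for genotype in controls, where 0.074% of all genes were called, or after ELS (0.0123%). The same held for genotype averaged over rearing (0.136%), for ELS averaged over genotypes (0%) and for the interaction (0%), which compares the ELS effects of the genotypes. DESeq2 with the same surrogate variables called none of the 6 either. At an unadjusted p under 0.05, Coch for ELS averaged over genotypes was the single case. The share of all genes at that level was 4.98% for ELS in Fkbp5lox/lox mice, 2.76% for ELS in Fkbp5Nex mice, 8.78% for genotype in controls, 6.3% for genotype after ELS, 3.95% for the interaction and 11.4% for genotype averaged over rearing. The median log2 difference of the 6 genes was -0.01 and -0.04 for the ELS comparisons and 0.03 and 0.02 for the genotype comparisons, beside medians close to 0 over all genes tested.

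The exact permutation tests on single genes, which use no model, gave the same picture. None of 24 tests had a p under 0.05. The smallest was 0.143, for Coch and ELS in Fkbp5lox/lox mice (exact two-sided test, 1.85 ± 1.04 against 2.61 ± 0.52 log2 CPM, SD, n = 6 each, adjusted p = 0.916 over the 24). With 6 mice against 6, the smallest p that this test allows is 0.00216. For Coch, all 4 of the model's intervals reached a log2 difference past 0.7 in at least one direction, and for Dlk1 all but that of ELS in Fkbp5Nex mice did (-0.61 to 0.45), so these intervals include differences of that size. For Nr2f1 no interval of the 4 reached a log2 difference of 0.15 with the surrogate variables. Without them all 4 did, the farthest reaching 0.23 (genotype in controls).

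**Figure D2:**
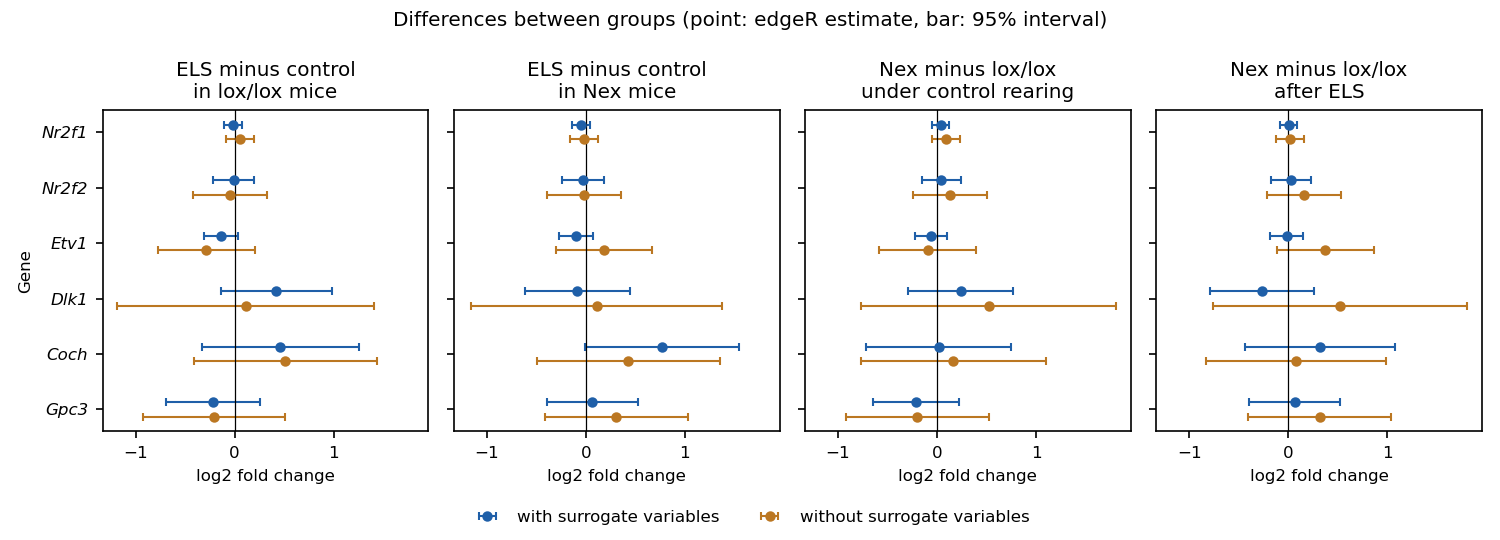
Log2 fold change (horizontal axis) of each gene in the 4 comparisons between groups, from edgeR with 5 surrogate variables (blue) and without them (orange), with 95% intervals as bars. Every interval includes 0, and the bars of Dlk1 and Etv1 shorten most when surrogate variables are included.

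The surrogate variables took up much of the variation of these genes. Of the variance that was left after the group means, they accounted for 92.7% in Etv1, 87.7% in Dlk1, 80.6% in Nr2f2, 80.0% in Nr2f1, 72.7% in Gpc3 and 57.6% in Coch, beside a median of 56.6% over all genes tested. The standard error of the ELS difference in Fkbp5lox/lox mice fell from 0.24 to 0.08 for Etv1 and from 0.63 to 0.27 for Dlk1 when they were included. The groups themselves accounted for 3.32% to 23.1% of the variance of the 5 surrogate variables, beside a median of 10.2% over all genes tested.

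Across mice, the genes other than Coch moved together. Deviations of log2 CPM from the group means were correlated over the 24 mice, with 100000 permutations within groups and adjustment over 69 relations, made up of 15 pairs of the 6 genes and 54 relations with marker lists. Of the 15 pairs, 9 passed an adjusted p of 0.05, all with a positive r, and none of the 9 involved Coch. The closest pair was Etv1 and Dlk1 (Pearson r = 0.87, permutation p = 1e-05, adjusted p = 0.000172). Its rank correlation was close to this (Spearman rho = 0.84, permutation p = 1e-05, adjusted p = 0.000172), and r was 0.83 once the 2 mice with the most extreme Etv1 were dropped. Here 1e-05 is the smallest p that these permutations can give.

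Nr2f2 and Dlk1 were related to nearly the same degree (r = 0.83, permutation p = 1e-05, adjusted p = 0.000172, rho = 0.81, permutation p = 2e-05, r = 0.78 without the 2 farthest mice). Nr2f1, although it varied little, followed Gpc3 (r = 0.82, permutation p = 3e-05, adjusted p = 0.000345, rho = 0.76, permutation p = 0.00012, r = 0.71 without the 2 farthest mice). The other 6 pairs had r between 0.60 and 0.75 and rho between 0.63 and 0.73, with adjusted p up to 0.0208 for r and up to 0.0122 for rho. All 9 pairs had a positive r within each of the 4 groups, from 0.27 to 0.98 over 6 mice. Nr2f1 and Etv1 missed the threshold (r = 0.53, adjusted p = 0.0612 from permutations, rho = 0.46). Coch had r between 0.12 and 0.18 with Nr2f1, Etv1, Dlk1 and Gpc3, and 0.47 with Nr2f2 (adjusted p = 0.109 from permutations).

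In fits that each omitted 1 mouse, between 8 and 10 pairs passed. After the surrogate variables had been removed along with the group means, none of the 15 pairs passed, with r from -0.08 to 0.58. No sequencing batch is given in the sources used here, so no relation was recomputed within batches.

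**Figure D3:**
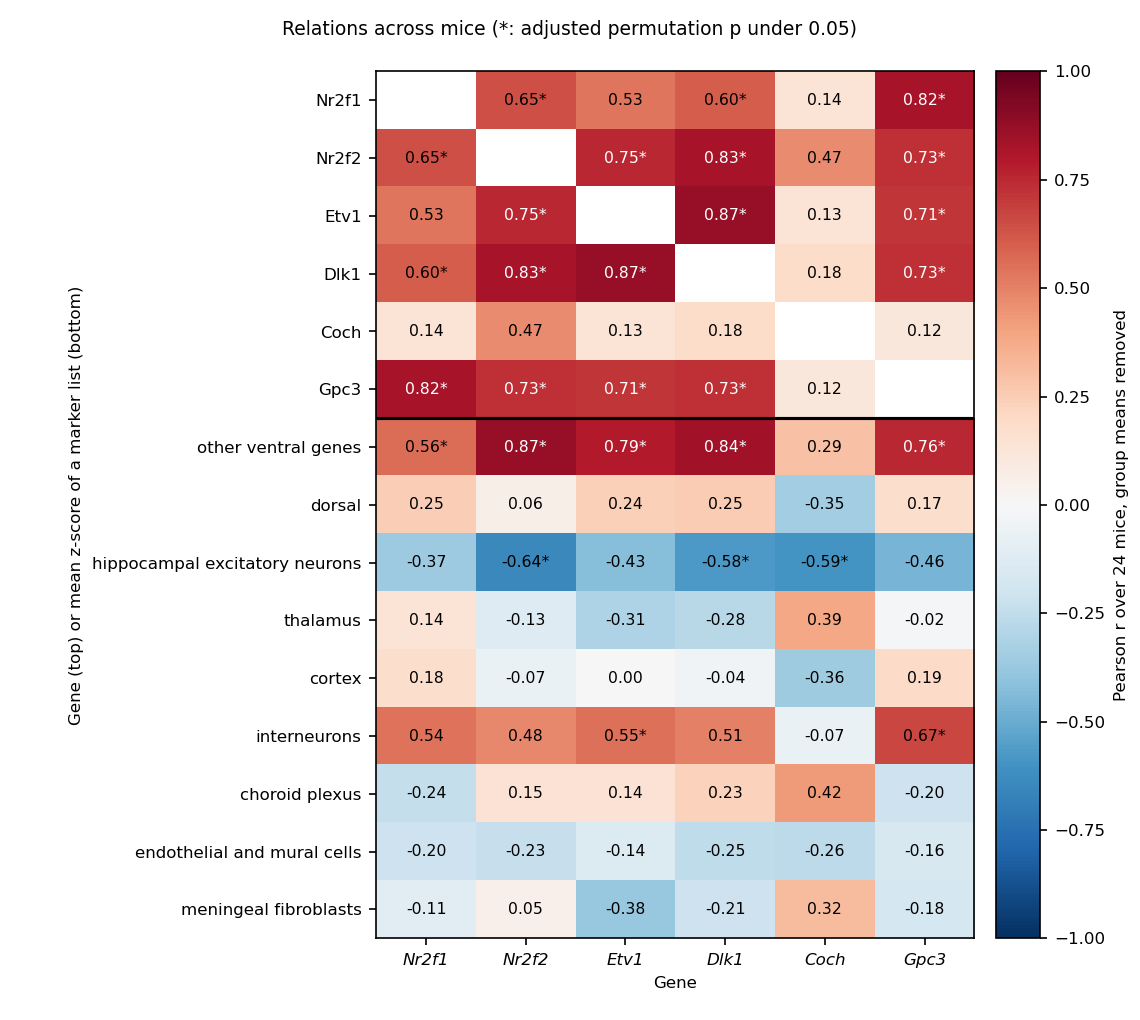
Pearson r over 24 mice, after removal of group means, between each of the 6 genes (columns) and the other genes (upper rows) or the mean z-score of each marker list (lower rows). Red stands for positive and blue for negative r, and an asterisk marks an adjusted permutation p under 0.05. The column of Coch is pale against the other genes, while the row of other ventral genes is red in the remaining columns.

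The same mice stood at the ends of several genes. Among Fkbp5lox/lox controls, mouse 44 was highest in 5 of the 6 genes, all but Coch, and mouse 30 was lowest in 4 (Nr2f2, Dlk1, Coch and Gpc3). Mouse 8 was lowest in Nr2f2, Etv1 and Dlk1 among Fkbp5lox/lox ELS mice. Among Fkbp5Nex mice, number 12 was lowest in Nr2f1, Etv1, Dlk1 and Gpc3 within the controls, and within the ELS group number 60 was lowest in all 6 genes and number 10 highest in 5.

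In 3 of the 4 groups, the mouse highest in the dentate granule cell genes Prox1, C1ql2 and Dsp was low in several of the 6 genes (mice 8, 12 and 60). In the group of Fkbp5lox/lox controls, no single mouse was highest in all of these granule cell genes. Prox1, a transcription factor of these cells, had 278 CPM in mouse 8 against at most 136 in the other 5 mice of its group. It had 196 CPM in mouse 12 against 34.1 to 69.9, and 128 CPM in mouse 60 against 48.7 to 73.9. Fkbp5, which Nex-Cre does not remove from granule cells, was likewise highest in mouse 12 (26.5 CPM, others 8.71 to 14.4) and in mouse 60 (23.1 CPM, others 10.0 to 15.7) within their Fkbp5Nex groups. Among Fkbp5lox/lox controls, mouse 44, high in 5 of the 6 genes, had the highest Prox1 (140 CPM, others 71.7 to 125) and Dsp (52.4 CPM, others 19.9 to 36.0). C1ql2 was instead highest in mouse 34 (103 CPM) and mouse 30 (101 CPM), against 66.3 CPM in mouse 44. Mouse 34 was lowest of this group in Etv1, and mouse 30 was lowest in 4 of the 6 genes. The part of tissue composition in the values of these mice was not tested.

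**Figure D4:**
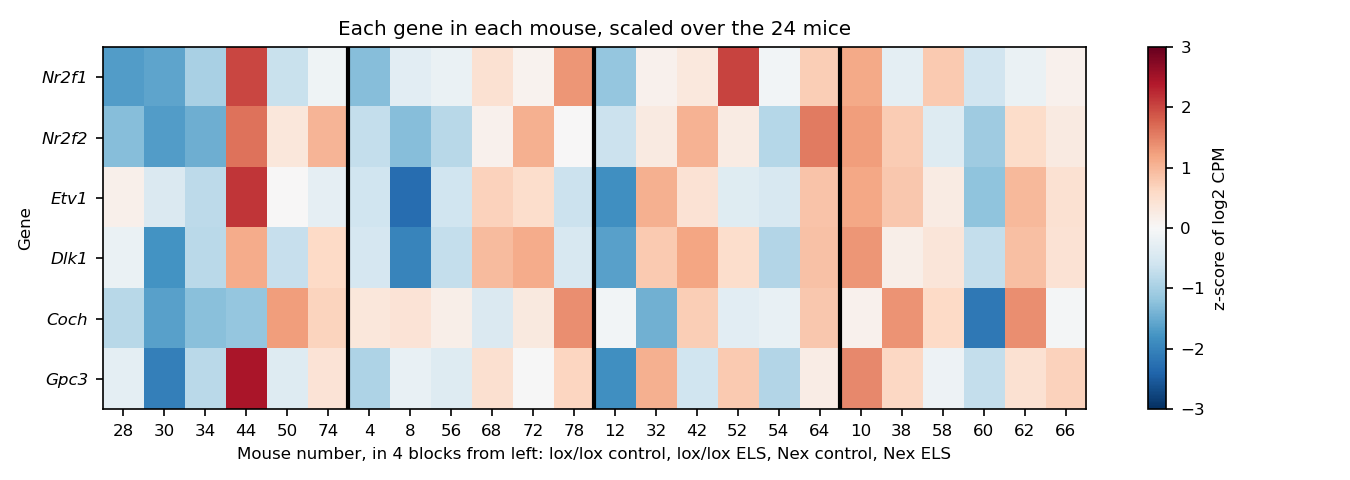
Each gene (rows) in each mouse (columns, by mouse number within the 4 groups), as the z-score of log2 CPM over the 24 mice, from blue (low) to red (high). Mouse 44 is red in all rows but Coch, and mice 30, 12 and 60 are blue in most rows.

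A further 8 genes known for ventral hippocampal expression (Trhr, Dcn, Htr2c, Grp, Lypd1, Nnat, Efnb2 and Col5a1) were combined in a score. None of the 6 genes enters this score, but the 8 genes, like the 6, were chosen with earlier results of these data known. The score followed Nr2f2 (r = 0.87, permutation p = 1e-05, adjusted p = 0.000172, rho = 0.89) and Dlk1 (r = 0.84, permutation p = 1e-05, adjusted p = 0.000172, rho = 0.90) most closely. Etv1 (r = 0.79, adjusted p = 0.000394 from permutations), Gpc3 (r = 0.76, adjusted p = 0.000431 from permutations) and Nr2f1 (r = 0.56, adjusted p = 0.0309 from permutations) passed too, and Coch did not (r = 0.29, adjusted p = 0.429 from permutations). None of the 8 genes was called in any of the 7 comparisons.

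Single genes of the lists were then set against the 6 genes, in a family of 132 relations that was chosen after the data had been seen. Nr2f2 had a positive r with all 8 of the other ventral genes, 6 of them past an adjusted p of 0.05. Counts past it were 5 for Etv1, 4 for Dlk1, 3 for Gpc3, 1 for Nr2f1 and 1 for Coch. Efnb2, which encodes ephrin-B2, followed Nr2f2 (r = 0.82, rho = 0.81, adjusted p = 0.00066 from permutations), and the imprinted gene Nnat followed Dlk1 (r = 0.81, rho = 0.77, adjusted p = 0.00066 from permutations) and Etv1 (r = 0.80, rho = 0.78, adjusted p = 0.00088 from permutations). Of the 8, Coch followed Lypd1 alone (r = 0.60, rho = 0.67, adjusted p = 0.0142 from permutations), which encodes a modulator of nicotinic receptors. Dcn, one of the 8, is also a gene of fibroblasts.

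The dorsal score (Wfs1, Fibcd1, Spink8, Lct and Lefty1) passed the threshold with none of the 6 genes, with r from -0.35 for Coch to 0.25 for Dlk1. Within groups, its r with Etv1 was 0.94 and 0.78 in Fkbp5lox/lox controls and ELS mice, and -0.38 and -0.66 in Fkbp5Nex ones. With Dlk1 it was 0.64, 0.65, -0.22 and -0.40 in the same order, and Nr2f2 had the same signs. For Nr2f1 it was positive and for Coch negative in each group. These differences between genotypes were not tested. Its genes did not move as one. Lct was lower where Dlk1 (r = -0.64, rho = -0.58, adjusted p = 0.0162 from permutations), Etv1 (r = -0.58) and Nr2f2 (r = -0.54) were higher. Fibcd1, in contrast, was higher where Etv1 (r = 0.69, rho = 0.73, adjusted p = 0.0127 from permutations), Dlk1 (r = 0.61) and Gpc3 (r = 0.50) were higher. Lefty1 was lower where Coch was higher (r = -0.44, rho = -0.52, adjusted p = 0.0456 from permutations).

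The score of hippocampal excitatory neuron markers, mostly genes of granule cells and of the CA fields, was lower in mice with more Nr2f2 (r = -0.64, rho = -0.70, adjusted p = 0.00632 from permutations), Coch (r = -0.59, adjusted p = 0.0259, rho = -0.52, adjusted p = 0.0543, from permutations) and Dlk1 (r = -0.58, rho = -0.62, adjusted p = 0.0208 from permutations). These relations did not hold in each group, since within the Fkbp5lox/lox ELS mice r was 0.05 for Nr2f2 and 0.34 for Dlk1. Nor did all 9 markers take part. Taken singly, 8 had a negative r with Nr2f2, 8 with Coch and 6 with Dlk1. Of these, 0, 0 and 3 passed an adjusted p of 0.05. Mpped1 had a positive r with Dlk1 (0.46) and Etv1 (0.51), neither past it. C1ql2 and Prox1 of the dentate gyrus were lower where Etv1 and Dlk1 were higher, with r between -0.64 and -0.60, and r shrank to between -0.49 and -0.33 without the 2 farthest mice. By rank, C1ql2 with Etv1 passed (rho = -0.53, adjusted p = 0.0439 from permutations), and the other 3 relations did not (adjusted p up to 0.0902). Zbtb20, also of this list, was lower where Nr2f1 was higher (r = -0.69, rho = -0.71, adjusted p = 0.0088 from permutations), while Slc17a7 (r = 0.07) and Neurod6 (r = -0.17) did not pass with Nr2f1. Zbtb20 was also lower where Dlk1 was higher (r = -0.67, rho = -0.67, adjusted p = 0.0088 from permutations), with r = -0.71 without the 2 farthest mice. With Gpc3 it passed by r (r = -0.61, adjusted p = 0.033 from permutations) but not by rank (rho = -0.50, adjusted p = 0.0902).

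Interneuron markers were higher in mice with more Gpc3 (r = 0.67, rho = 0.63, adjusted p = 0.0136 from permutations) and Etv1 (r = 0.55, adjusted p = 0.0477, rho = 0.53, adjusted p = 0.0543, from permutations). The relation with Etv1 passed in 8 of 24 fits that each left out 1 mouse. Scores of thalamus, cortex, choroid plexus, endothelial and mural cells and meningeal fibroblasts passed with none of the 6 genes. Coch had its highest r among these with the choroid plexus (0.42, adjusted p = 0.111 from permutations) and the thalamus (0.39, adjusted p = 0.121 from permutations). In all, 10 of the 54 relations with lists passed, and 6 did without mouse 60 of the Fkbp5Nex ELS group. After the surrogate variables had been removed along with the group means, none of the 54 passed.

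**Figure D5:**
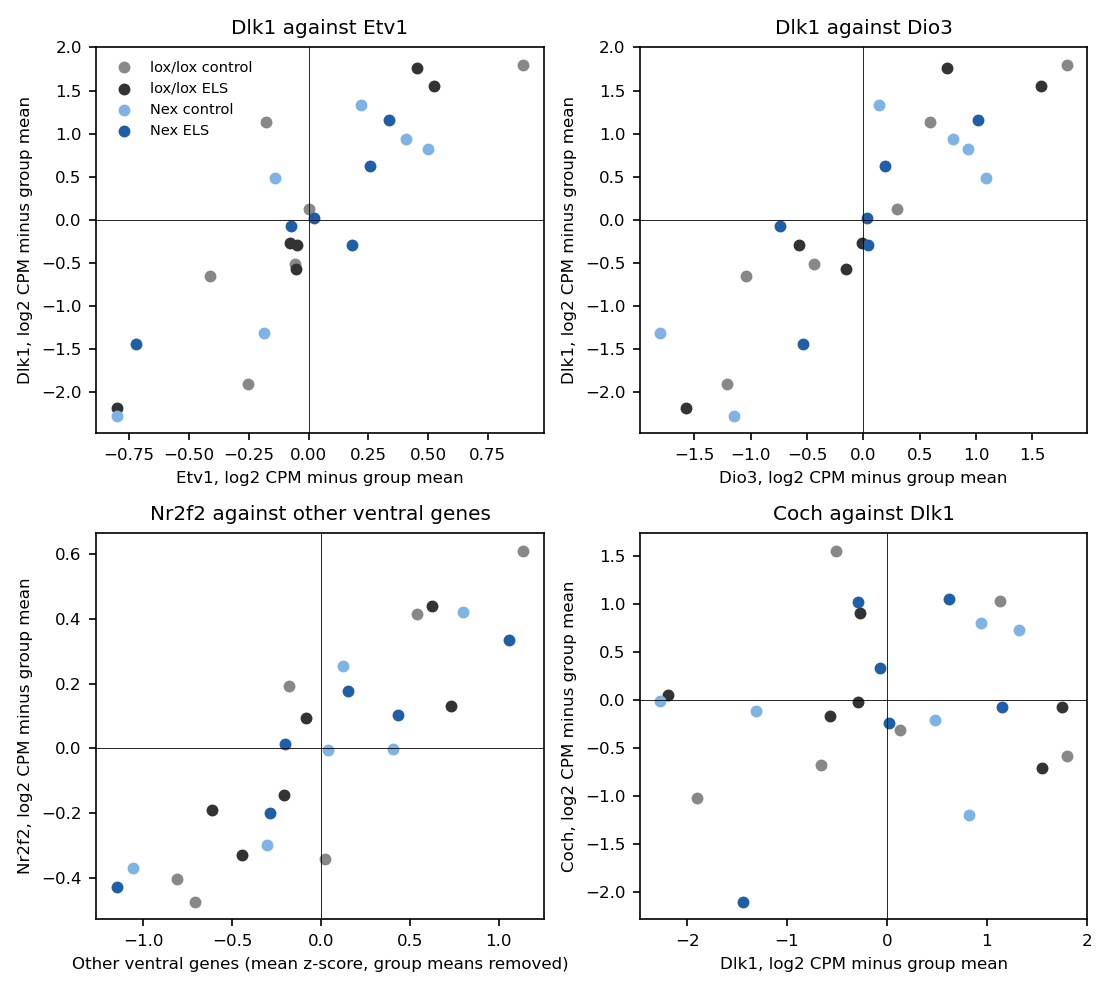
Deviations from the group mean in each of 24 mice, as log2 CPM or, for the other ventral genes, as a mean z-score, with the groups in 4 colours. Dlk1 climbs with Etv1 (r = 0.87) and with Dio3 (r = 0.89), and Nr2f2 climbs with the other ventral genes (r = 0.87), while Coch is scattered against Dlk1 (r = 0.18).

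Dlk1 lies at one end of an imprinted domain on chromosome 12, in which Dlk1, Rtl1 and Dio3 are expressed from the paternal chromosome and the noncoding RNAs Meg3, Rian and Mirg from the maternal one. These neighbours and the paralogs of the 6 genes were set against their own member in a family of 15 relations, paired after the data had been seen. Dio3, which encodes a thyroid hormone deiodinase, followed Dlk1 most closely (r = 0.89, permutation p = 1e-05, adjusted p = 0.00015, rho = 0.89, r = 0.88 without the 2 farthest mice). It had 2.27 to 30.0 CPM over the 24 mice.

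Rian (r = 0.78, rho = 0.77, adjusted p = 0.0003 from permutations), Mirg (r = 0.73, rho = 0.67, adjusted p = 0.0004) and Rtl1 (r = 0.69, rho = 0.70, adjusted p = 0.00143 from permutations) followed Dlk1 too. Meg3, the nearest tested gene at 77665 bases from Dlk1, had r = 0.46 (adjusted p = 0.0759 from permutations) and rho = 0.58 (adjusted p = 0.0169). Genes expressed from either parental chromosome were thus higher in mice with more Dlk1.

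Of the paralogs, Etv5 (r = 0.64, rho = 0.63, adjusted p = 0.00333 from permutations) and Etv4 (r = 0.51, rho = 0.53, adjusted p = 0.0435 from permutations) followed Etv1, although r for Etv4 was 0.36 without the 2 farthest mice. The other glypicans did not follow Gpc3, with r from -0.20 for Gpc1 to 0.29 for Gpc5, and Gpc4, its nearest tested neighbour on chromosome X, had r = 0.02. Dlk2 with Dlk1 (r = -0.32) and Nr2f6 with Nr2f1 (r = -0.07) and Nr2f2 (r = -0.45, adjusted p = 0.0759 from permutations) did not pass. None of these 14 relatives was called in any comparison, and their median log2 difference was at most 0.05 in all 7.

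The genes most like each member were looked up among all genes tested by Pearson r of the deviations over the 24 mice, as a description with no test. For Nr2f2 these were Timp2 (r = 0.92), AW551984 (0.92) and Gpr101 (0.90), for Dlk1 Slc7a3 (0.93), Timp2 (0.93) and Gabra3 (0.93), and for Etv1 Plxnc1 (0.94), Gm5454 (0.92) and Rian (0.92). Timp2, an inhibitor of matrix metalloproteinases, was thus near both Nr2f2 and Dlk1, and Rian of the imprinted domain near Etv1. Gpc3 had Dpy19l1 (0.91), Tmem130 (0.89) and Kcnf1 (0.86), and Nr2f1 had Kcnk3 (0.82), Tmem130 (0.79) and Camk1 (0.78), so that Tmem130 was near both. Coch had Vgll3 (0.82), Klhdc8a (0.78) and Lrrc1 (0.75), which are near none of the others by this rule. Where the 6 genes ranked for each other, Gpc3 was closest to Nr2f1 of all genes tested, and Dlk1 came 13th for Nr2f2 and 15th for Etv1.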

How the data were processed

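Raw counts of reads were deposited by the authors for each gene in 24 mice. Their provider filtered reads, aligned read pairs with HISAT2 2.0.5 and counted with featureCounts 1.5.0-p3, per the labels and the methods. Genome build, annotation and strand setting are not given in the sources used here.

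The 6 genes and all lists were chosen with earlier results of these data known. A gene was tested if all mice of 1 or more groups reached 10 counts (16209 of 46983). Counts were scaled by TMM and tested with edgeR 4.0.16 (R 4.3.3, quasi-likelihood, Benjamini-Hochberg adjustment, FDR 0.02), with 4 group means and 5 surrogate variables from svaseq (sva 3.50.0, number by num.sv). The study used DESeq2, which was run here as an alternative (DESeq2 1.42.0). Log2 CPM used a prior count of 0.5. Standard errors come from the fold change and its F statistic. Relations, exact tests and motif searches ran in Python 3.11.15 with scipy 1.17.1. Lists were scored as mean z-scores. GENCODE vM21 gave positions for 46488 identifiers.

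Named genes are the 6, their 3 nearest genes by correlation, list genes past the threshold, Fkbp5 and, for lists without any, the most abundant, with relatives beside them. Others, such as Lct, C1ql2 and Lypd1, were named after their values were seen. Prox1, Dsp, Clic6, Ttr and Neurod6 are the list genes that passed for genotype in controls or over both rearings, all lower in Fkbp5Nex mice.

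On simulated counts for 16209 genes with 5 surrogate variables, 98 of 100 genes changed by a log2 value of 1 were recovered for genotype and 86 of 100 for ELS in Fkbp5lox/lox mice, with 3 and 5 unchanged genes called. The changed genes were drawn at random from all genes tested. These rates therefore need not hold for Dlk1, Coch and Gpc3, which varied more between mice than most genes. In the study, dams were assigned to ELS or control rearing together with their litters. Labels do not name litters, so mice were treated as independent, and p-values measure the spread between these mice. If littermates resemble each other, the standard errors of the ELS differences are too small. Alternatives were no surrogate variables, a thalamic marker score in their place, DESeq2's size factors, its Wald test, filterByExpr, no filter, an FDR of 0.05, only the mice compared, log2(CPM + 1) and each mouse left out. Leaving mice out of the relations was added after the data had been seen.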

Additional observations from a re-analysis of the deposited data

Results flagged for a closer look

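Etv1 in Fkbp5lox/lox controls was the single case, among 24 combinations of gene and group, in which 1 mouse stood far from the other 5. Mouse 44 had 180 CPM, and on the log2 scale its distance to the next mouse was 0.684 of the range of the group, above Dixon's critical value for 6 mice. Chance gives such a case in about 1 of 20 groups. The same mouse was also highest in Nr2f1, Nr2f2, Dlk1 and Gpc3 within its group. The number of pairs of genes past the threshold stayed between 8 and 10 whichever mouse was left out, this mouse included.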

How the results depend on the processing

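None of the 6 genes was called under any alternative. Their 42 log2 differences kept their direction with DESeq2's size factors, its Wald test, filterByExpr and no filter, and the 24 exact tests stayed above 0.05 with DESeq2's size factors and log2(CPM + 1). Directions did turn under others, for differences of up to 0.51 in size, and the cause was not tested. Without surrogate variables, Nr2f1 had 0.055 for ELS in Fkbp5lox/lox mice and 0.017 for ELS over both genotypes. Etv1 had 0.18 for ELS in Fkbp5Nex mice, 0.38 for genotype after ELS and 0.14 for genotype over both rearings, and Dlk1 had 0.11, 0.52 and 0.52 for these. The interaction was -0.00064 for Dlk1, -0.033 for Nr2f2 and 0.086 for Coch, and Gpc3 had 0.059 for genotype and 0.050 for ELS. With the thalamic score in their place, ELS in Fkbp5lox/lox mice and ELS over both genotypes gave 0.032 and 0.0044 for Nr2f1 and 0.025 and 0.0076 for Nr2f2. Etv1 had 0.21 for ELS in Fkbp5Nex mice, 0.049 for genotype in controls, 0.33 for genotype after ELS, 0.19 for genotype over both rearings and 0.072 for ELS over both genotypes. Dlk1 had 0.12 for ELS in Fkbp5Nex mice, 0.52 for genotype after ELS and 0.74 for genotype over both rearings. Coch had -0.065 for genotype in controls, and Gpc3 had 0.066 for genotype and 0.11 for ELS. With only the mice compared, Etv1 had 0.0041 for ELS in Fkbp5Nex mice, Nr2f2 had -0.16 for genotype after ELS, and Coch had -0.027 for genotype in controls and -0.70 for genotype after ELS.

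With each mouse left out in turn, these differences changed sign in at least 1 fit. For ELS in Fkbp5lox/lox mice they ran from -0.037 to 0.022 (Nr2f1) and from -0.10 to 0.055 (Nr2f2), and for ELS in Fkbp5Nex mice from -0.099 to 0.083 (Nr2f2), -0.21 to 0.011 (Dlk1) and -0.078 to 0.38 (Gpc3). For genotype in controls they ran from -0.045 to 0.081 (Nr2f2), -0.31 to 0.31 (Coch) and -0.53 to 0.016 (Gpc3). For genotype after ELS they ran from -0.030 to 0.023 (Nr2f1), -0.060 to 0.11 (Nr2f2), -0.094 to 0.021 (Etv1), -0.43 to 0.011 (Dlk1), -0.0045 to 0.56 (Coch) and -0.15 to 0.20 (Gpc3). The interaction ran from -0.084 to 0.10 (Nr2f2), -0.10 to 0.029 (Etv1) and -0.69 to 0.043 (Coch), genotype over both rearings from -0.0081 to 0.079 (Nr2f2), -0.11 to 0.13 (Dlk1) and -0.18 to 0.066 (Gpc3), and ELS over both genotypes from -0.068 to 0.041 (Nr2f2) and -0.16 to 0.020 (Gpc3). Coch for ELS over both genotypes kept its sign, from 0.44 to 0.85.

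Of all genes, 12 were called for genotype in controls. This was 30 at an FDR of 0.05, 2 without surrogate variables, 2 with the thalamic score, 27 with no filter, 53 with DESeq2, 7 with only the mice compared and 5 to 15 with a mouse left out (5 without mouse 12). For genotype over both rearings, the 22 calls became 47, 3, 3, 44 and 66 under the first 5 of these, and 7 to 34 with a mouse left out. Here 7 were called without mouse 12 and 34 without mouse 54, both Fkbp5Nex controls, and 12 without mouse 64, mouse 44 or mouse 72 and 14 without mouse 38. The 2 calls for genotype after ELS became 4 with DESeq2 and 1 with only the mice compared, and DESeq2 called 1 gene, Bok, for ELS in Fkbp5lox/lox mice. After removal of the surrogate variables, 0 of 15 pairs and 0 of 54 list relations passed, against 9 and 10, and with a mouse left out 8 to 10 and 6 to 13 did. No paired analysis was possible because each mouse number belongs to 1 group. Depth limits Coch, Dlk1 and Gpc3 most, whose lowest counts were 25, 37 and 64.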

Other observations

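Gpr101, one of the genes nearest to Nr2f2, encodes an orphan G protein-coupled receptor and varied more within groups (SD of 1.49 log2 CPM) than any of the 6 genes. Vgll3, the gene nearest to Coch, had an SD of 1.20. Timp2, near both Nr2f2 and Dlk1, had a geometric mean of 372 CPM and an SD of 0.39. Rian, near Etv1 with r = 0.92, varied by an SD of only 0.15 around 845 CPM.

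Of lists with no gene past the threshold, the highest mean CPM (± SD, n = 24) belonged to Nnat (366 ± 88.5) and Htr2c (76.2 ± 32.0) of the other ventral genes, and to Fibcd1 (154 ± 84.2) and Wfs1 (45.3 ± 8.49) of the dorsal genes. The thalamic list was led by Prkcd (34.5 ± 29.3) and Zic1 (17.6 ± 11.2), the cortical one by Tle4 (69.7 ± 5.31) and Fezf2 (29.3 ± 8.12), and the interneuron list by Gad1 (406 ± 32.3) and Gad2 (239 ± 28.0). Rgs5 (99.5 ± 15.5) and Vtn (60.3 ± 11.0) led the vascular list, Igf2 (57.7 ± 42.4) and Ogn (8.91 ± 6.89) the meningeal one, and Meg3 (4185 ± 665) and Rian (850.2 ± 91.5) the relatives.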
